A study of Rattus norvegicus with 6 samples.

Results

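Nucleotide excision repair (NER) removes bulky, helix-distorting lesions by cutting out a short stretch of the damaged strand and copying it anew. The genes described here are 10 factors of this pathway, namely Xpc, Ddb1, Ddb2, Xpa, Ercc1, Ercc2, Ercc3, Ercc4, Ercc5 and Ercc6. They were taken by gene symbol from the deposited count table, and each of the 10 names matched exactly 1 of its 18930 rows. The cells were NRK-52E, an established epithelial line from rat kidney. Streptozotocin (STZ) is a nitrosourea carrying a glucose moiety and methylates DNA. NRK-52E is described as proximal tubular. Messenger RNA was sequenced from 3 samples labelled Control and from 3 samples exposed to STZ at 10 mM for 24 h, all wild type and all of the same line. The paper describes the cells compared with STZ as given vehicle. No source says whether samples of a group were separate cultures, so the spread below is that between these samples and may be technical.

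In global-genome NER, the XPC complex and the DDB1-DDB2 dimer find lesions anywhere in the genome. In transcription-coupled NER, the CSB protein (Ercc6) acts at stalled RNA polymerase. Both routes hand over to TFIIH, whose helicases XPB (Ercc3) and XPD (Ercc2) open the DNA. XPA then verifies the damage with RPA, XPG (Ercc5) cuts on one side, and the ERCC1-XPF pair (Ercc1 and Ercc4) cuts on the other. XPC and DDB2 are known as p53 targets in human cells, whereas the mouse Ddb2 gene has been described as lacking this response. Methylated bases of the kind STZ leaves are handled mainly by direct reversal and base excision, which is background and not a result here.

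Total counts per library lay between 10430924 and 15191349. Values are CPM, the reads of a gene scaled to a common library size after TMM normalization, which evens out library composition, and levels are compared only within a gene because transcript lengths were not used. Of 9 kidney epithelial markers, 6 were listed; Krt8 was abundant at 1102 to 1613 CPM, while Krt18, Cdh16 and Pax8 had at most 4 reads in any library and Epcam, Krt19 and Pax2 were not listed. Of the proximal tubule markers, 3 of 5 listed (Lrp2, Slc34a1 and Slc5a2) stayed under 10 reads in every library, Cubn had at most 10, and Aqp1 alone passed the filter; their sum was 9.83 to 16.5 CPM in Control and 5.74 to 6.83 CPM in STZ. The summed kidney epithelial markers, mostly Krt8, were 1106 to 1180 CPM in Control and 1599 to 1616 CPM in STZ. The 5 fibroblast or smooth muscle markers summed to 99.3 to 109 CPM in Control and 80.9 to 89.9 CPM in STZ, with Acta2, Col1a1 and Pdgfrb present and Col1a2 and Pdgfra at 4 reads or fewer. The leukocyte markers summed to at most 2.11 CPM and the endothelial markers to at most 0.782 CPM in any library. The part of these shifts in the results below was not tested.

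STZ-treated cells had less Ddb2, Xpa and Ercc5 RNA and slightly more Ercc3 RNA than Control, and Xpc did not rise. The calls for Ddb2 and Ercc5 held in all 15 refits under other settings or with a sample left out, whereas Xpa lost its call in 3 of 15 and Ercc3 in 8 of 15, with adjusted p-values of up to 0.0692 and 0.255. Of the 10 genes, all passed the low-count filter, and 4 had an adjusted p-value under 0.05 (edgeR quasi-likelihood test, Benjamini-Hochberg over the 11870 genes that were tested), 1 higher and 3 lower. Across all genes tested, 50.9% passed this threshold, 25.9% higher and 25.1% lower, so a count of 4 of 10 lies near the background. None of the 10 also had an absolute log2 fold change over 1, a requirement met by 3.37% of all genes tested. The count was also 0 with DESeq2 and with limma-voom. The same 4 of the 10 had an unadjusted edgeR p under 0.05, a looser threshold that at least 50.9% of all genes tested pass. Normalized counts of STZ and Control did not overlap for 5 of the 10 genes (Ddb2, Xpa, Ercc5, Ercc3 and Ddb1), against 56.3% of all genes tested. The median log2 fold change of the 10 was -0.10, between -0.59 and 0.12, and that of all genes tested was -0.0055. As the RNA came from whole cultures, fewer cells of a kind and less RNA per cell cannot be told apart.

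**Figure D1:**
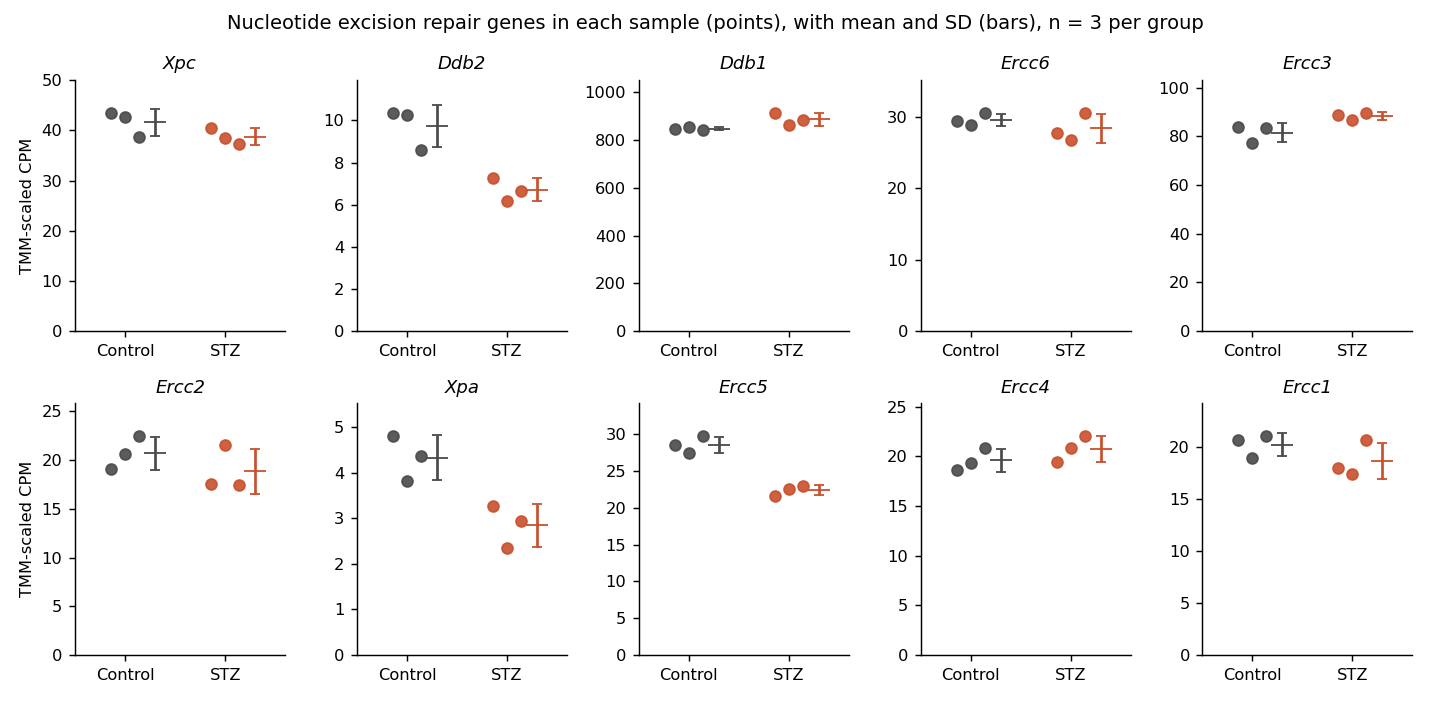
Each panel plots 1 gene, with TMM-scaled CPM on a vertical axis that starts at 0, a point for every Control (grey) and STZ (red) sample, and the group mean with SD (n = 3). Ddb2, Xpa and Ercc5 are the genes whose STZ points all lie below their Control points.

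The first question was whether Xpc and Ddb2, the factors with a known p53 response, stood apart from the other 8. Xpc, which binds the distorted helix opposite the lesion, had 43.6, 42.7 and 38.6 CPM in the Control samples and 40.6, 38.4 and 37.3 CPM in the STZ samples. The groups overlapped, as Control replicate 3 lay between the STZ samples. The means were 41.6 ± 2.66 CPM in Control and 38.8 ± 1.66 CPM in STZ (SD, n = 3), and edgeR gave a log2 fold change of -0.10 with a standard error of 0.065 (adjusted p = 0.206). Its 95% interval ran from -0.23 to 0.032, whose upper end is a level 1.02 times that of Control. Xpc had 442 to 559 reads per library, so this interval is among the narrower ones of the 10 genes.

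Ddb2, the subunit of the DDB dimer that contacts the lesion, had 10.4, 10.3 and 8.58 CPM in Control and 7.27, 6.17 and 6.67 CPM in STZ. Every STZ sample was below every Control sample. The means were 9.74 ± 1.01 and 6.70 ± 0.551 CPM (SD, n = 3), which put Ddb2 at a level 30.6% lower in STZ, with a log2 fold change of -0.53 (standard error 0.14, edgeR adjusted p = 0.00114). Its adjusted p was 3.7e-04 to 0.00998 over the 15 other settings and left-out samples. Ddb2 was sparse, with 71 to 113 reads per library. In the same libraries Cdkn1a, the p53 target encoding the cell-cycle inhibitor p21, went from 232 ± 4.19 CPM in Control to 1298 ± 23 CPM in STZ (SD, n = 3), a log2 fold change of 2.49 (edgeR adjusted p = 1.05e-39).

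Ddb1, the large partner of Ddb2 and an adaptor of the CUL4 ubiquitin ligases, was by far the most read of the 10 genes, with 8982 to 13246 reads per library. It had 847, 855 and 843 CPM in Control and 916, 863 and 884 CPM in STZ. The groups did not overlap, yet the difference was 4.69% and the log2 fold change of 0.066 (standard error 0.035, edgeR adjusted p = 0.111) did not pass the threshold. The count ratio of 2 genes within a library does not depend on how libraries are scaled. For every 100 reads of Ddb1 there were 1.22, 1.20 and 1.02 reads of Ddb2 in Control and 0.794, 0.715 and 0.755 in STZ. These ratios did not overlap, and their mean log2 difference was -0.60. The exact two-sided permutation test over samples gave p = 0.1, the smallest value that 3 against 3 samples allow.

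**Figure D2:**
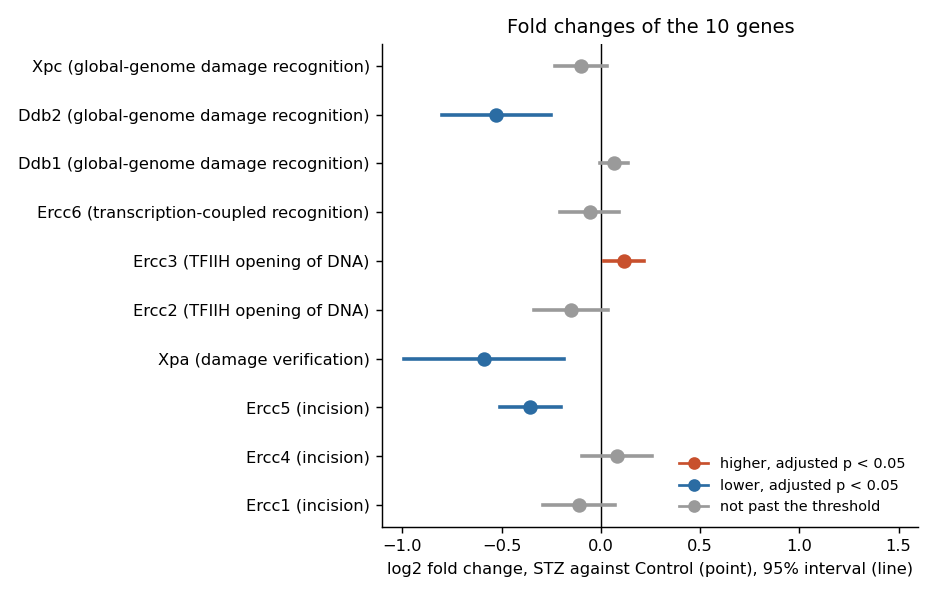
Points are log2 fold changes of STZ against Control from edgeR and lines their 95% intervals, ordered by step of the pathway, blue where lower and red where higher at an adjusted p-value under 0.05. Ddb2, Xpa and Ercc5 lie to the left of 0 with their whole intervals, and the interval of Xpc reaches 0.032.

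The 8 core factors, all members but Xpc and Ddb2, had a median log2 fold change of -0.083. This median was -0.054 without Control replicate 3, -0.055 without STZ replicate 1 and -0.041 without STZ replicate 2, and -0.12 with library size as the only scaling. Of these 8, 1 was called higher and 2 lower, which is 37.5% against 50.9% of all genes tested. The value for Xpc, -0.10, lay inside their range of -0.59 to 0.12, and so did that of Ddb2, -0.53. For Ddb2 this rested on Xpa alone, which set the lower end with only 27 to 56 reads per library. The next lowest core factor was Ercc5 at -0.35, so Ddb2 lay below every core factor but Xpa. No test of the members as a set was made, because they were chosen by name with results known.

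RefSeq promoters (GRCr8) were searched to set the p53-responsive factors beside the sequence upstream of their genes. The search used the 10-base consensus of a single unit of the p53 response element, not of the full element. This consensus reads the same on both strands. Of the 10 genes, 8 matched at least 1 promoter in the table, with 11 promoters in all; Ddb2 and Xpa were not in it. In the 250 bases before each start site, 0 of these 11 promoters held an exact match, against 6.64% of the 33469 promoters in the table. At that share, 11 promoters are too few to tell 0 from the background. Of the 11, 4 belonged to Ercc4 and 1 to Xpc. The Xpc sequence and a stretch of the Cdkn1a promoter, which held 1 match, are shown in 5′ to 3′ direction on the strand of each gene. Their log2 fold changes were -0.10 and 2.49, and Ddb2 had no promoter to show. Capitals mark the match, and a match or its absence in this window is a description only. Xpc is at chr4:125578085-125578334 on the minus strand and Cdkn1a at chr20:7150706-7150765 on the plus strand.
Xpc: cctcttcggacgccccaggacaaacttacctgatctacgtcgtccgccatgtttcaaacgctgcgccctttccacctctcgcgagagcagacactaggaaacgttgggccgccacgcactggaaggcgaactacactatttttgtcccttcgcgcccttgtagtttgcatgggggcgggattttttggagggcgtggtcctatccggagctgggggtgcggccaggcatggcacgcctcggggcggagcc
Cdkn1a: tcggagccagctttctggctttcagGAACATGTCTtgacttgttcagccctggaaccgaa

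Xpa, the small zinc-finger protein that checks the opened DNA, had the fewest reads of the 10 genes, 27 to 56 per library. It had 4.81, 3.82 and 4.37 CPM in Control and 3.27, 2.35 and 2.94 CPM in STZ. No STZ sample reached the lowest Control sample. The log2 fold change was -0.59 (standard error 0.20, edgeR adjusted p = 0.0126), with a 95% interval from -0.99 to -0.18. This call depended on single samples, since the adjusted p was 0.0563 without Control replicate 1 and 0.0692 without STZ replicate 2, and it was 0.0538 with DESeq2's Wald test.

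Among the nucleases, Ercc5, which makes the cut on the 3′ side of the lesion, fell in STZ. It had 28.5, 27.5 and 29.7 CPM in Control and 21.6, 22.6 and 22.9 CPM in STZ. The groups were well apart, with the highest STZ sample several CPM under the lowest Control sample. Ercc5 was 21.8% lower, a log2 fold change of -0.35 (standard error 0.077, edgeR adjusted p = 0.000147), and its adjusted p was at most 0.00205 in the 15 other settings and left-out samples. Ercc5 had 260 to 381 reads per library, a depth like that of Ercc1, Ercc2 and Ercc4.

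The pair that cuts on the 5′ side did not pass the threshold. Ercc4, its catalytic subunit, had 18.6, 19.4 and 20.8 CPM in Control and 19.4, 20.9 and 22.02 CPM in STZ, with a log2 fold change of 0.081 (95% interval -0.094 to 0.26, edgeR adjusted p = 0.456). Ercc1, the non-catalytic subunit that positions it on DNA, had 20.6, 19.0 and 21.1 CPM in Control and 18.0, 17.5 and 20.7 CPM in STZ. Its log2 fold change was -0.11 (95% interval -0.29 to 0.072, edgeR adjusted p = 0.323). For both genes the groups overlapped. There were 111, 98.1 and 101 reads of Ercc1 per 100 of Ercc4 in the Control libraries and 92.5, 83.8 and 93.9 in the STZ libraries. The ratio was lower in each STZ library than in any Control library (mean log2 difference -0.20, exact two-sided permutation p = 0.1, the smallest possible).

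In TFIIH, the 3′ to 5′ helicase subunit Ercc3 had 83.9, 77.1 and 83.6 CPM in Control and 88.6, 86.6 and 89.7 CPM in STZ. All STZ samples were above all Control samples, by a small margin. The log2 fold change was 0.12 (standard error 0.049, edgeR adjusted p = 0.0469), which is 8.35% and at the edge of the threshold. The call was lost without Control replicate 2 (adjusted p = 0.255), without STZ replicate 1 (0.0877) and without STZ replicate 3 (0.125), and in 5 other settings, from 0.0675 to 0.164. Ercc2, the 5′ to 3′ helicase, had 19.0, 20.6 and 22.5 CPM in Control and 17.6, 21.5 and 17.5 CPM in STZ. One STZ sample, replicate 2, lay among the Control samples. Its log2 fold change was -0.15 (95% interval -0.34 to 0.036, edgeR adjusted p = 0.176), and -0.24 (adjusted p = 0.0413) without STZ replicate 2.

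Ercc6, the ATPase of transcription-coupled repair, had 29.3, 28.8 and 30.5 CPM in Control and 27.8, 26.7 and 30.6 CPM in STZ. The highest of the 6 samples was an STZ sample, and so was the lowest. The log2 fold change was -0.057 (95% interval -0.21 to 0.092, edgeR adjusted p = 0.547).

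Part of a member's reads could come from a neighbour, because no source gives the strand option used in counting, although the libraries were stranded. In the GRCr8 annotation the spans of Xpc, Ercc4 and Ercc5 overlapped no other gene. Ddb2 overlapped Acp2, which was higher in STZ (log2 fold change 0.25, edgeR adjusted p = 6.75e-05), the opposite of Ddb2. Ercc1 overlapped Polr1g, which was also higher (log2 fold change 0.52, edgeR adjusted p = 1.75e-08), and a long non-coding RNA. Xpa overlapped Ncbp1 over much of its span, and Ncbp1 had 1155 to 1667 reads per library and a log2 fold change of -0.10 (edgeR adjusted p = 0.0666). Ddb1 shared 6 bases of span with Tkfc, and Ercc2 overlapped Klc3 and Mir343. Ercc3 shared 30713 bases of span with an unnamed protein-coding locus, and Ercc6 shared 640 bases with an unnamed long non-coding RNA. Neither of these unnamed loci was listed among the counted genes. The reads were mapped to Rnor6, another build, so the annotation used in counting may lack them. Spans are whole genes with their introns, so an overlap of spans need not be an overlap of exons. How far such overlaps entered the counts was not tested.

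The rest of the pathway was read from a list of 39 other NER genes, all of which were listed and passed the filter in 40 rows, Pole3 having 2 rows. Of the 40 rows, 10 were higher and 13 lower at an adjusted p-value under 0.05, which is 57.5% against 50.9% of all genes tested. Their median log2 fold change was -0.0053, and none passed the fold-change threshold. The changes went in both directions within most steps.

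**Figure D3:**
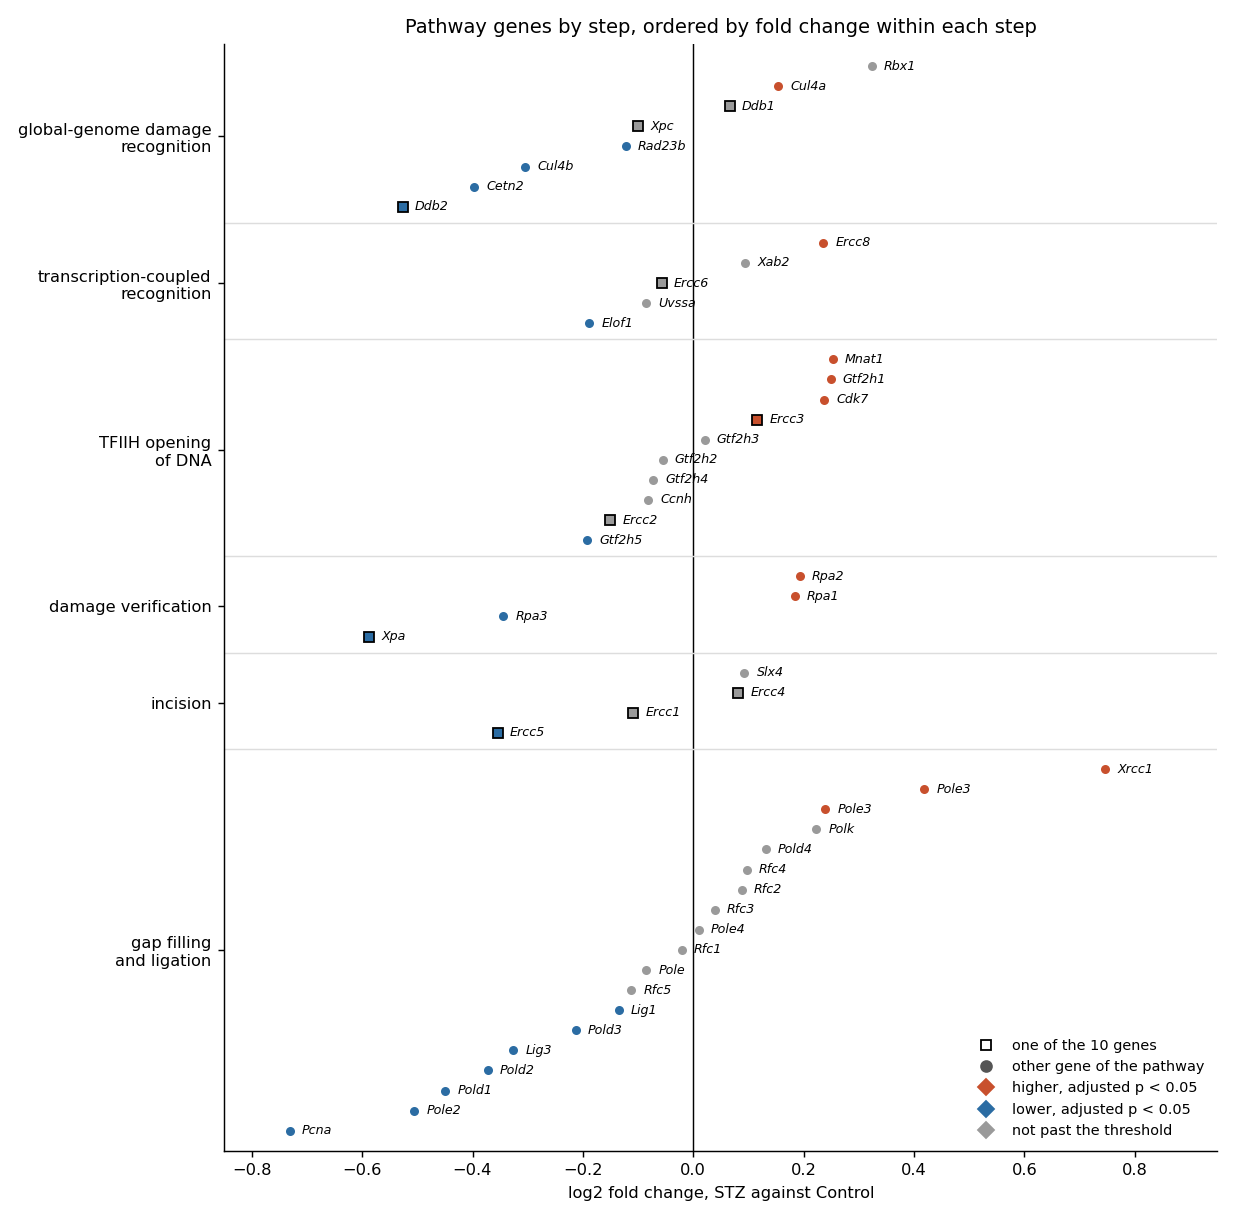
The 10 members and 39 other genes are plotted by step of the pathway (vertical) against the log2 fold change of STZ over Control (horizontal), as squares and circles, with colour for the call at an adjusted p-value under 0.05. The widest spread is in gap filling and ligation, from Pcna at -0.73 to Xrcc1 at 0.75.

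Of 5 partners of the recognition factors, 3 fell, 1 rose and 1 did not pass, a share of calls of 80% in a list of only 5 genes against 50.9% of all genes tested. Rad23b encodes a protein that stabilizes XPC, and Cetn2 encodes centrin 2, the third subunit of that complex. Cetn2 had 49.7, 46.1 and 44.6 CPM in Control and 35.5, 33.6 and 36.96 CPM in STZ, with no overlap. Cetn2 fell by 0.40 on the log2 scale (edgeR adjusted p = 1.75e-06), and Rad23b by 0.12 (edgeR adjusted p = 0.00794). Xpc itself did not pass, and its reads per 100 of Rad23b were 10.7, 9.84 and 8.55 in Control against 10.6, 9.79 and 9.05 in STZ. This ratio overlapped almost completely (exact two-sided permutation p = 1).

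The scaffolds of the ligase that DDB1 and DDB2 join moved in opposite directions. Cul4a rose (log2 fold change 0.15, edgeR adjusted p = 0.00351) and Cul4b fell (log2 fold change -0.30, edgeR adjusted p = 3.64e-07). Rbx1, the RING subunit, had only 10 to 19 reads per library, and its interval ran from -0.37 to 1.02.

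In transcription-coupled repair, 1 of 4 partners rose and 1 fell, or 50% called against the same 50.9%. Ercc8, which encodes the CSA protein of the same ubiquitin ligase family, had 14.99, 15.1 and 14.3 CPM in Control and 17.2, 17.8 and 17.3 CPM in STZ. All 3 STZ samples were above the Control samples, with a log2 fold change of 0.24 (edgeR adjusted p = 0.0332). Reads of Ercc6 per 100 of Ercc8 were 196, 191 and 213 in Control and 161, 150 and 177 in STZ, which did not overlap (mean log2 difference -0.30, exact two-sided permutation p = 0.1, the smallest possible). Elof1, an elongation factor, fell by 0.19 on the log2 scale (edgeR adjusted p = 0.00689), while Uvssa and Xab2 had log2 fold changes of -0.085 and 0.094 and did not pass (Elof1 and Xab2 are named after their values were seen).

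**Figure D4:**
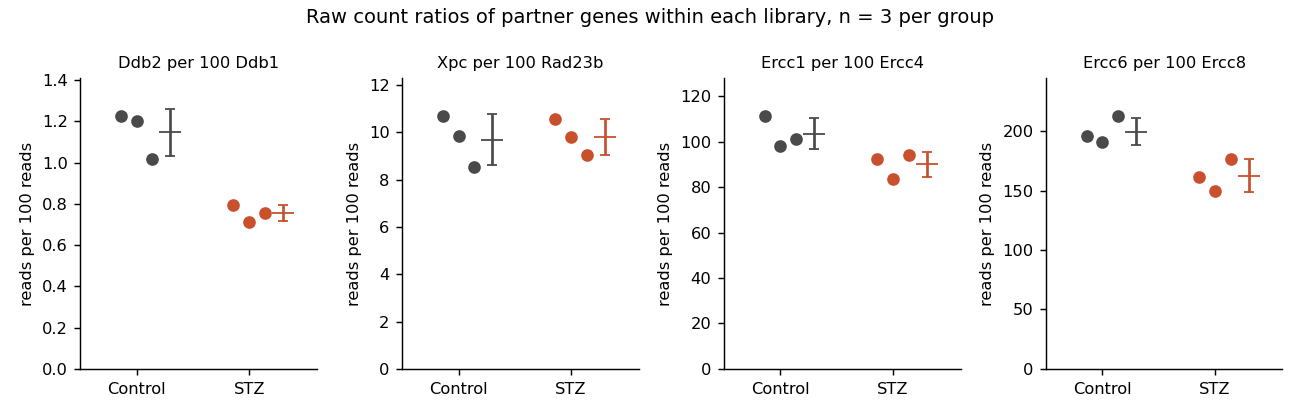
Points are raw reads of the first gene per 100 reads of its partner in each library, Control in grey and STZ in red, with the mean and SD (n = 3) beside them and vertical axes from 0. Ddb2 to Ddb1, Ercc1 to Ercc4 and Ercc6 to Ercc8 are lower in all STZ libraries, and Xpc to Rad23b overlaps between groups.

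Of the 8 other TFIIH subunits, 3 rose, 1 fell and 4 did not pass, which is 50% called against 50.9% of all genes tested. Gtf2h1, the p62 subunit, had a log2 fold change of 0.25 (edgeR adjusted p = 1.79e-05). In the kinase module, Cdk7 (0.24, edgeR adjusted p = 4.11e-04) and its assembly factor Mnat1 (0.25, edgeR adjusted p = 3.55e-04) rose, whereas their cyclin Ccnh had a log2 fold change of -0.082 (95% interval -0.20 to 0.035) and did not pass. Gtf2h5, the smallest subunit, fell by 0.19 on the log2 scale (edgeR adjusted p = 0.0156). Gtf2h2, Gtf2h3 and Gtf2h4 had log2 fold changes of -0.055, 0.021 and -0.072.

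The subunits of RPA, the single-strand binding trimer that works with XPA, were also divided. Rpa1 had 180, 176 and 186 CPM in Control and 217, 195 and 204 CPM in STZ, and Rpa2 followed with a log2 fold change of 0.19 (edgeR adjusted p = 0.00425) beside 0.18 for Rpa1 (edgeR adjusted p = 3.69e-04). Rpa3, the smallest subunit, had 31.7, 30.01 and 27.8 CPM in Control and 24.1, 23.4 and 22.8 CPM in STZ, a log2 fold change of -0.34 (edgeR adjusted p = 2.07e-04). Slx4, a scaffold for ERCC1-XPF and other nucleases, had a log2 fold change of 0.093 (95% interval -0.0091 to 0.19) and did not pass.

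Gap filling and ligation uses proteins shared with DNA replication and base excision repair. Of its 19 rows, 3 rose and 7 fell, which is 52.6% called and near the 50.9% of all genes tested. Xrcc1, the partner of ligase 3, showed the largest rise, from 78.2, 70.7 and 76.0 CPM in Control to 117, 137 and 124 CPM in STZ (log2 fold change 0.75, standard error 0.052, edgeR adjusted p = 7.62e-16). Pcna, the sliding clamp, showed the largest fall, from 267, 289 and 278 CPM to 171, 162 and 168 CPM (log2 fold change -0.73, standard error 0.041, edgeR adjusted p = 3.7e-19). Samples of both groups were far apart for either gene. The other calls were 2 rises, both of them rows of Pole3, and falls of Pole2, Pold1, Pold2, Lig3, Pold3 and Lig1 between -0.51 and -0.14. All 5 subunits of the clamp loader, Rfc1 to Rfc5, did not pass, with log2 fold changes between -0.11 and 0.097, nor did Pold4 (0.13), Pole (-0.085), Pole4 (0.010) and Polk (0.22). Xrcc1 and Pcna were picked by their values, as the largest rise and the largest fall of this step. The other genes of the step were named after their values were seen.

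Genes with a pattern like those of Xpc and Ddb2 were sought among 9889 genes by the Euclidean distance between centred log2 CPM over the 6 samples. Nearest to Xpc were Pef1, Kdelr3 and Ecsit, at distances of 0.031 to 0.032 and with log2 fold changes of -0.092 to -0.11. Nearest to Ddb2 were Pter, Fgfrl1 and Ptprd, at distances of 0.11 to 0.13 and with log2 fold changes of -0.44 to -0.47. These distances share the same 6 libraries and are given as a description.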

How the data were processed

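RNA of NRK-52E cells (3 Control and 3 STZ samples) was sequenced as stranded mRNA libraries in single-end reads of 100 bases. The authors mapped these to Rnor6 with STAR 2.7.10a (version per the submitters' processing notes) and deposited raw counts of uniquely mapped reads per gene from featureCounts. Its strand setting is not given in the sources used here. All 6 count columns matched a sample title.

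Counts were filtered with filterByExpr, scaled by TMM and tested by quasi-likelihood F-test (edgeR 4.0.16, R 4.3.3). P-values were adjusted by Benjamini-Hochberg over 11870 genes. Standard errors were derived from the log2 fold change and its F statistic, and 95% intervals from them. Steps were tested on simulated data. Alternatives were other filters, scalings, DESeq2 1.42.0, limma-voom (limma 3.58.1), a replicate block and leaving out each sample. The distance between patterns used log2(CPM + 0.5) and genes with a mean of at least 50 normalized counts.

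All 10 members were named, as were their direct partners, the largest rise and fall in gap filling, Cdkn1a, the nearest patterns and overlapping genes. Beyond the 39 other NER genes tabulated, 1 further gene of the list is not reported here. The members and lists were chosen with earlier results of these data known. RefSeq tables of GRCr8 gave overlaps and promoters, for which 10 of 10 members were found as genes.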

Additional observations from a re-analysis of the deposited data

How the results depend on the processing

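Of the 10 members, 4 were called, and 2 with DESeq2's Wald test, which lost Ercc3 and Xpa; on omitting any 1 sample, 3 to 4 were called. The number called higher, 1 (Ercc3), was 0 with no filter, 0 with at least 0.5 CPM in 1 or more samples, 0 with library size only, 0 with the upper quartile and 0 with DESeq2's Wald test, and 0 to 1 on omitting any 1 sample. Among all genes tested, 25.9% were higher and 25.1% lower in the main setting, and 21.9% and 20.6% with DESeq2's Wald test. The share higher was 16.3% with no filter, where 18930 genes were tested, and 23.2% with the 0.5 CPM filter. It was 22.4% with library size only and 23.8% with the upper quartile, while the shares lower rose to 29.4% and 27.4%. On omitting any 1 sample, 23.2% to 23.8% were higher and at most 23.2% lower. The cause of the lost member calls was not tested. The number of members called lower, 3, was 2 to 3 on omitting any 1 sample. Over 150 refits of single members, 138 kept direction and side of the threshold, 11 lost the call (8 for Ercc3, 3 for Xpa) and 1 gained it (Ercc2). None changed sign. Counts of rows called for the other NER genes stayed within 1.5 times, at 8 to 11 higher and 10 to 13 lower on omitting any 1 sample. The median of the core factors was -0.12 to -0.083 under 3 other scalings and -0.11 to -0.041 on omitting any 1 sample. The log2 difference of the Ddb2 to Ddb1 ratio was then -0.69 to -0.55, that of Ercc1 to Ercc4 -0.24 to -0.15, that of Ercc6 to Ercc8 -0.36 to -0.24 and that of Xpc to Rad23b -0.068 to 0.093.

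Control and STZ samples share replicate numbers. Deviations of same-numbered samples from their group means correlated at 0.0324, -0.0378 and 0.105 over 10341 genes (genes are no independent replicates), so the samples were not treated as paired. Whether same-numbered samples shared a day or batch is not stated in the sources used here. With the replicate block 4 members were called, 1 higher and 3 lower, with 0 past the fold-change threshold. Of the rows of other NER genes, 10 were higher and 13 lower. Among all genes tested, 26.4% were then higher and 25.8% lower. The block changed no call among the members. Depth limits Xpa most, whose counts of 27 to 56 give a sampling error of about 15% per library.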
